A study of Mus musculus with 8 samples.

Results

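Igtp, Irgm1 and Irgm2 are interferon-inducible immunity GTPases, and they were followed here across 8 Visium sections of the embryonic mouse diaphragm. They were taken by symbol from the gene names of the deposited matrices, where all 3 were found in every section, among 19465 genes. The 3 genes were chosen by their pattern in these same sections, and which contrast had been used is not recorded, so every value of theirs is given as a description with no p-value.

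Immunity-related GTPases (IRG proteins) are part of cell-autonomous immunity, by which a cell defends its own cytoplasm against microbes. Interferon-γ binds its receptor, JAK kinases pass the signal on, and transcription factors that include IRF1 turn on IRG genes, as well as genes for guanylate-binding proteins and antigen presentation. Irgm1, Irgm2 and Igtp (also called Irgm3) form the regulatory subgroup of the family: they sit on the membranes of the host cell and keep the effector IRG proteins, such as Iigp1, inactive there. Irgm1 and Igtp have also been linked to autophagy and to lipid droplets. The diaphragm at these ages holds skeletal muscle fibers, the central tendon, connective tissue, vessels and resident macrophages.

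The 8 sections comprised 3 control and 1 CaV1.1 -/- diaphragm at E14.5 (E, embryonic day), and 2 control, 1 CaV1.1 -/- and 1 β-cat cKO diaphragm at E18.5. CaV1.1 is the calcium channel with which skeletal muscle senses depolarization and triggers contraction. CaV1.1 -/- embryos are the dysgenic line, which lacks the channel in the whole body and came from crosses of heterozygous parents, some of which also carried HSA-Cre or floxed β-catenin alleles. In β-cat cKO embryos a human skeletal actin (HSA) promoter drives Cre, so that floxed β-catenin is deleted in muscle and not in neighbouring cells. Their parents carried 1 intact CaV1.1 allele, so a β-cat cKO embryo may lack 1 copy of CaV1.1, and the CaV1.1 genotype of this section was not given. Control animals had at least one intact allele of either gene, and the genotype of each single control was not given. With 1 section per mutant group, a difference between a mutant and its controls has no replicate of the mutant. Its standard error (SE) rests on the spread of the gene among control sections, drawn by the fit toward the trend over all genes. It can thus be smaller than the spread of that gene alone would give.

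Visium measures RNA in 55 µm spots with probes on fixed tissue, and a spot can hold several cells of different kinds. Spots with at least 1000 unique molecular identifiers (UMIs) were kept, which gave 683 to 3460 spots and 14170423 to 82850603 UMIs per section. Muscle spots were those with a high mean level of 9 muscle genes (Ttn, Neb, Des and others), and numbered 491 to 3092 per section. The level of a gene is given as scaled CPM, its UMIs summed over the muscle spots of a section (or over its other spots) per 1000000 UMIs in those spots, divided by a TMM factor that sets most genes level between sums. Intervals are 95% exact Poisson intervals and cover counting error only. In sums of spots, fewer cells of a type and less RNA per cell cannot be told apart.

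All 9 muscle markers were detected in the muscle spots of every section. Their summed level there was 20410 to 27060 scaled CPM in E14.5 controls and 203800 to 211400 in E18.5 controls, against 15510 and 74350 in CaV1.1 -/- muscle at E14.5 and E18.5 and 142300 in β-cat cKO muscle. The targeted genes did not check every label: Cacna1s, which encodes CaV1.1, was at 32.7 scaled CPM in E18.5 CaV1.1 -/- muscle against 97.2 and 102 in its controls, but at 15.5 in E14.5 CaV1.1 -/- muscle against 17.2 to 20.9. Ctnnb1, which encodes β-catenin, was at 110 scaled CPM in the muscle of the section labelled β-cat cKO against 121 and 114 in controls. It was lower, at 80.4, in E18.5 CaV1.1 -/- muscle. In E14.5 CaV1.1 -/- muscle it was at 140 against 91.9 to 108 in controls. Where the probes for these genes lie relative to the altered parts is not given in the sources used here, and cells other than muscle contribute to each spot. The 28 pairs of sections shared 150 to 2153 spot barcodes, which on Visium slides are positions in the array.

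Igtp and Irgm2 are neighbours on chromosome 11 of the mouse genome (GRCm38), and Irgm1 lies apart from them on the same chromosome. In RefSeq the Igtp gene runs from 58199556 to 58207592 and Irgm2 from 58214977 to 58222783, both on the plus strand, with 7.38 kb between them. Irgm1 runs from 48865245 to 48871420 on the minus strand, 9.33 Mb from Igtp. GENCODE starts 1 of the 3 Irgm2 transcripts inside Igtp, so that this transcript overlaps the Igtp gene. The transcripts of Igtp and Irgm2 share 243 stretches of 50 bases, the length a probe pair covers, which is 11.8% of those in Igtp and 6.79% of those in Irgm2. Irgm1 shares 0 such stretches with either gene. The probe sequences were not analysed here, so it is not known whether any probe could count both Igtp and Irgm2, and the levels of this pair are uncertain to that extent.

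Genes that answer to interferon are turned on through short promoter elements. The 100 bases before each RefSeq start are shown because they hold matches to the letters of such elements. The lines give chr11:58199456-58199555 (plus strand) for Igtp, chr11:58214877-58214976 (plus strand) for Irgm2 and chr11:48871421-48871520 (minus strand) for Irgm1, from RefSeq on GRCm38.p6. Capitals mark matches to the core of the interferon-stimulated response element (ISRE, GAAANNGAA), which IRF factors bind, and to the gamma-activated sequence (GAS, TTCNNNGAA), an element of genes that answer to interferon-γ, each searched on both strands.
Igtp: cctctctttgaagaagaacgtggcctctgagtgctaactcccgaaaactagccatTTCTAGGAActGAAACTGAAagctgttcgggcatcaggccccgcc
Irgm2: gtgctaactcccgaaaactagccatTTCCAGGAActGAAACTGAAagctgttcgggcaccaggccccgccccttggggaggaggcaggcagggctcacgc
Irgm1: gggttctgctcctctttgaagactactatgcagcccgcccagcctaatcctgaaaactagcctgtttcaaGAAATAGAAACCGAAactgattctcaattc

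Igtp and Irgm2 had the same arrangement, a GAS match followed by an ISRE match, which began 45 and 34 bases before the start of Igtp and 75 and 64 bases before that of Irgm2. Irgm1 had a pair of overlapping ISRE matches that began 30 and 24 bases before its start, and no GAS match in its window of 300 bases (250 before the start and 50 after). In windows of that length, 8.56% of all 32851 RefSeq promoters held the ISRE letters and 8.3% the GAS letters. Over the aligned part of these windows, 244 of 265 bases (92.1%) were identical between Igtp and Irgm2, against 55 of 71 (77.5%) between Igtp and Irgm1. Of 82 other interferon-related genes with a promoter in the table, 32 (39.0%) held an ISRE match and 23 (28.0%) a GAS match, against 9.76% and 9.55% of all 27025 genes. A match is a run of letters and not a measured binding site.

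Igtp in muscle was lowest in the CaV1.1 -/- section at E14.5 and highest in the β-cat cKO section. It was at 45.6, 33.2 and 31.2 scaled CPM in the 3 E14.5 controls and at 49.2 and 44.3 in the 2 E18.5 controls, on 437 to 2348 UMIs each. The CaV1.1 -/- section was at 13.4 (95% interval 11.9 to 15.1, 292 UMIs) at E14.5 and at 42.6 (39.5 to 46.0, 667 UMIs) at E18.5. The β-cat cKO section was at 115 (111 to 118, 4093 UMIs). The control groups overlapped across stages, and the E18.5 CaV1.1 -/- section lay within the range of the E14.5 controls and just under both E18.5 controls. Neither the E14.5 CaV1.1 -/- nor the β-cat cKO value overlapped any other section.

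Irgm2 in muscle gave the same order at the bottom and the top. It was at 29.0, 23.7 and 20.9 scaled CPM in E14.5 controls and at 44.4 and 43.5 in E18.5 controls. CaV1.1 -/- muscle was at 9.3 (95% interval 8.1 to 10.7, 202 UMIs) at E14.5 and at 41.5 (38.4 to 44.8, 649 UMIs) at E18.5, and β-cat cKO muscle was at 61.6 (59.0 to 64.2, 2197 UMIs). Unlike those of Igtp, the 2 control groups did not overlap, and the E18.5 CaV1.1 -/- section was close to its controls, with an interval that held both.

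In scaled CPM, Irgm1 in muscle followed the age of the embryo more than the genotype. It was at 7.6, 8.0 and 6.9 scaled CPM in E14.5 controls, at 13.9 and 18.7 in E18.5 controls and at 6.4 (95% interval 5.4 to 7.6) in the E14.5 CaV1.1 -/- section. At E18.5 the β-cat cKO section, at 15.2, lay between the 2 controls, and the CaV1.1 -/- section, at 22.8 (20.5 to 25.2), lay above both. All 4 E14.5 sections were below all 4 E18.5 sections. Without the TMM factors the control means were 7.91 CPM at E14.5 and 10.2 at E18.5. The E18.5 CaV1.1 -/- section was then at 21.8 and the β-cat cKO section at 11.2. The CaV1.1 -/- section thus stood farther from its controls than the 2 control stages from each other.

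**Figure D1:**
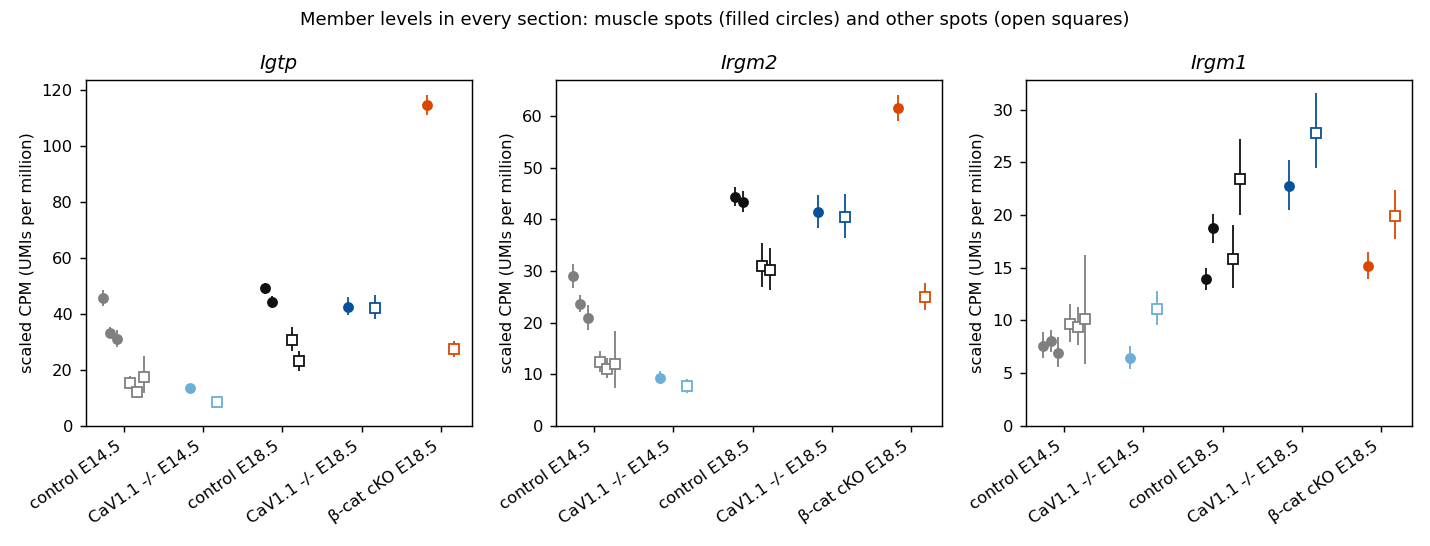
Level of Igtp, Irgm2 and Irgm1 in scaled CPM (linear axis from 0) in each section, by group, for muscle spots (filled circles) and other spots (open squares); bars are 95% exact Poisson intervals. Igtp in muscle is at 13.4 in the E14.5 CaV1.1 -/- section and at 115 in the β-cat cKO section, with the controls between 31.2 and 49.2, while Irgm1 in muscle is at 6.4 to 8.0 in the E14.5 sections and at 13.9 to 22.8 in the E18.5 sections.

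Between E14.5 and E18.5, control muscle held more Irgm1 and Irgm2 and about the same Igtp on this scale. The mean was 7.51 ± 0.54 (SD, n = 3) and 16.3 ± 3.40 scaled CPM (SD, n = 2) for Irgm1, 24.5 ± 4.11 and 43.9 ± 0.64 for Irgm2, and 36.7 ± 7.76 and 46.7 ± 3.47 for Igtp. The log2 fold changes of the fit over all 8 sections were 1.08 ± 0.15 (SE) for Irgm1, 0.81 ± 0.13 for Irgm2 and 0.32 ± 0.16 for Igtp. The scale mattered here: on library totals without TMM the median of all genes shifted by -0.73 on the log2 scale, and Igtp came to -0.39, Irgm2 to 0.10 and Irgm1 to 0.36. Igtp thus changed sign with the scaling, yet on either scale it lay above the median gene. Per 1000 UMIs of the 9 muscle markers, whose own level rose as given above, all 3 genes were lower at E18.5: Igtp was at 1.48 to 1.68 in E14.5 controls and 0.209 and 0.241 in E18.5 controls, Irgm2 at 0.992 to 1.16 and 0.206 and 0.218, and Irgm1 at 0.281 to 0.392 and 0.0682 and 0.0885.

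The other interferon-related genes were mostly higher in E18.5 control muscle. By edgeR's quasi-likelihood test with Benjamini-Hochberg adjustment (adjusted p under 0.05, as for all calls that follow), 72 of 89 tested genes of the list rose and 3 fell, with a median log2 fold change of 1.28 against -0.01 over all 14832 genes. The background was high too, since 65.6% of all genes were called in either direction. All 16 antigen presentation genes rose, among them B2m (0.88 ± 0.09, adjusted p = 1.0e-04), the light chain of MHC class I, and Psmb8 (2.02 ± 0.17, adjusted p = 2.6e-05), an immunoproteasome subunit. Of 8 guanylate-binding genes, the other large family of interferon-induced GTPases, 7 rose, for example Gbp7 (2.46 ± 0.20, adjusted p = 2.4e-05). Irf1 rose by 0.64 ± 0.18 (adjusted p = 0.014), and the receptor chains Ifngr1 and Ifngr2 by 0.67 ± 0.12 and 1.09 ± 0.10 (adjusted p = 0.0014 and 5.6e-05). On library totals Irf1, Ifngr1 and the IRG gene Irgq were at -0.09, -0.05 and -0.15 in place of a rise.

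Of the 5 other IRG genes tested, 3 rose with age, named here after their values were seen: Ifi47 (1.32 ± 0.22, adjusted p = 0.0010), Gm4951 (2.95 ± 0.39, adjusted p = 3.0e-04) and Irgq (0.57 ± 0.08, adjusted p = 5.2e-04). The largest rise among antiviral genes was that of Xaf1 (3.42 ± 0.28, adjusted p = 2.7e-05), and Tap2, a subunit of the peptide transporter for antigen presentation, rose by 2.71 ± 0.25 (adjusted p = 5.1e-05). Samhd1, a dNTP hydrolase that restricts viruses, fell by 0.69 ± 0.08 (adjusted p = 2.2e-04), and Ptpn2, a phosphatase that acts on JAK and STAT proteins, fell by 0.66 ± 0.11 (adjusted p = 9.3e-04). Among 12 partners in autophagy, 6 rose and 3 fell, which is near the 65.6% of all genes called in this comparison. All 10 endothelial markers and 7 of 11 macrophage markers also rose: their summed levels were 352 to 490 and 241 to 271 scaled CPM in E14.5 controls and 1213 to 1274 and 389 to 482 in E18.5 controls. Their part in these changes was not tested.

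In CaV1.1 -/- muscle at E14.5, Igtp and Irgm2 stood at 2.73-fold and 2.63-fold lower levels than the control mean. The log2 fold changes were -1.47 ± 0.24 for Igtp and -1.42 ± 0.20 for Irgm2, and -0.24 ± 0.20 for Irgm1. Of 14832 genes, 414 were lower than Igtp and 438 lower than Irgm2 in this comparison. Deeper and shallower muscle spots, split at the median UMI count, gave near values in the mutant section (13.5 and 13.0 scaled CPM for Igtp, 9.19 and 10.6 for Irgm2). Relative to muscle rather than to all RNA, Igtp was at 0.866 UMIs per 1000 UMIs of the 9 muscle markers, against 1.48 to 1.68 in the controls, and Irgm2 at 0.599 against 0.992 to 1.16. Both lay below the control range on this scale, while Irgm1, at 0.415, lay above its range of 0.281 to 0.392.

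Values as low as those of Igtp and Irgm2 were rare in the interferon-related list, as they were over all genes (414 and 438 of 14832). Of 89 tested, 0 were called in either direction by edgeR, while 2.08% of all genes were. At an unadjusted p under 0.05 there were 16, and DESeq2 called 2. The median log2 fold change of the list was 0.15 against 0.00 over all genes, and 1 of 89 list genes, Irgc1 (-2.19 ± 0.83, adjusted p = 0.25), was lower than Igtp and Irgm2. Irf1 was at -0.13 ± 0.23 (adjusted p = 0.84) and the effector IRG gene Iigp1 at 1.93 ± 0.49 (adjusted p = 0.11). Around the Igtp and Irgm2 locus, 9 genes within 500 kb were tested and 0 were called in either direction by edgeR, with 1 at an unadjusted p under 0.05. The macrophage markers summed to 437 scaled CPM against 241 to 271 in controls, with 4 of 11 called higher and Cd163 at 0 in 1 control. The endothelial markers summed to 257 against 352 to 490, with 1 of 10 called lower. Their part in the values of Igtp and Irgm2 was not tested.

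In CaV1.1 -/- muscle at E18.5, Igtp and Irgm2 were near their controls and Irgm1 was above them. The log2 fold changes were -0.06 ± 0.22 for Igtp, -0.01 ± 0.18 for Irgm2 and 0.56 ± 0.20 for Irgm1. On library totals, where the median gene shifted by 0.54, they became 0.48, 0.53 and 1.1. Per 1000 UMIs of muscle markers, whose level in this section was below that of its controls, all 3 genes lay above both controls: Igtp at 0.574 against 0.241 and 0.209, Irgm2 at 0.558 against 0.218 and 0.206, and Irgm1 at 0.306 against 0.0682 and 0.0885. The 2 CaV1.1 -/- sections were compared with different controls, and the difference between the stages was not tested.

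Of the interferon-related list, 13 genes rose and 4 fell in this section (25.7% of all genes were called), with a median of 0.43 against 0.00. Without control replicate 1 the counts were 8 and 3, and without control replicate 2 they were 40 and 5. Effector genes of the IRG family were among those that rose, namely Iigp1 (1.90 ± 0.53, adjusted p = 0.036), Ifi47 (1.29 ± 0.27, adjusted p = 0.013) and Gm4951 (1.69 ± 0.41, adjusted p = 0.023), named after their values were seen. So did Cd74 (1.79 ± 0.26, adjusted p = 0.0039), the invariant chain of MHC class II, and the class II genes H2-Aa, H2-Ab1 and H2-Eb1, by 2.13 ± 0.44, 2.04 ± 0.28 and 2.20 ± 0.52 (adjusted p = 0.012, 0.0036 and 0.020), these 3 named in the same way. Samhd1 rose by 1.12 ± 0.11 (adjusted p = 0.0014). The signaling genes Jak1 and Ifngr2 fell by 1.13 ± 0.21 and 0.59 ± 0.14 (adjusted p = 0.0093 and 0.024), and the IRF2-binding corepressor Irf2bp2 fell by 0.51 ± 0.11 (adjusted p = 0.016), although it was at 0.03 on library totals. Macrophage markers summed to 759 scaled CPM against 389 and 482, with 7 of 11 called higher, and endothelial markers to 745 against 1274 and 1213, with 8 of 10 called lower. Their part was not tested.

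In β-cat cKO muscle, Igtp stood at a 2.46-fold and Irgm2 at a 1.4-fold higher level than the mean of the E18.5 controls. The log2 fold changes were 1.32 ± 0.21 for Igtp, 0.51 ± 0.17 for Irgm2 and -0.08 ± 0.20 for Irgm1. Of 14832 genes, 410 were higher than Igtp and 1559 higher than Irgm2. Igtp was detected in 1297 of 1577 muscle spots (82.2%), against 1404 of 3092 (45.4%) and 1108 of 2199 (50.4%) in the controls. Median UMIs per muscle spot were 29861 against 23525 and 27917. Deeper and shallower spots gave 113 and 119 scaled CPM for Igtp, and 61.6 and 61.6 for Irgm2. Per 1000 UMIs of muscle markers, Igtp was at 0.806 against 0.241 and 0.209, Irgm2 at 0.433 against 0.218 and 0.206, and Irgm1 at 0.107 against 0.0682 and 0.0885. The high Igtp was thus spread over most of the muscle spots.

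Few other interferon-related genes were called in this section. Of 89 tested, 0 rose and 2 fell, Irf2bp2 (-0.45 ± 0.11, adjusted p = 0.047) and Gbp9 (-0.86 ± 0.21, adjusted p = 0.046), the latter named after its value was seen. Of all genes, 8.8% were called, and the list's median was -0.08 against -0.01. Irf1 was at 0.05 ± 0.23 (adjusted p = 0.93), B2m at -0.05 ± 0.13 (adjusted p = 0.84) and Gbp2 at -0.04 ± 0.49 (adjusted p = 0.97). The 2 controls lay far apart for some list genes, such as Irf7 and Usp18, named after their values were seen. Irf7 was at 6.18 and 17.1 scaled CPM in the controls and at 8.01 in β-cat cKO muscle. Usp18 was at 4.1 and 10.2, and at 6.02. For B2m the controls were close, at 213 and 243. Where controls differ so much, 1 mutant section cannot show whether a gene stayed level. Of the 89 genes, 1 had a higher fold change than Igtp and 7 a higher one than Irgm2. That is near the share over all genes, where 410 and 1559 of 14832 did. The gene above Igtp was the IRG gene Irgc1, named after its value was seen. It was at 1.71 scaled CPM against 0.859 and 0.458 in the controls. In E14.5 CaV1.1 -/- muscle, where it was the list gene below Igtp, it was at 0.092 against 0.357 to 0.48. All of these levels are low. Of 9 tested neighbours within 500 kb of Igtp and Irgm2, 0 were called by edgeR, and 1 had an unadjusted p under 0.05. Macrophage markers summed to 634 scaled CPM against 389 and 482 (4 of 11 called higher and 1 lower), and endothelial markers to 772 against 1274 and 1213 (3 of 10 called lower). Their part was not tested.

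**Figure D2:**
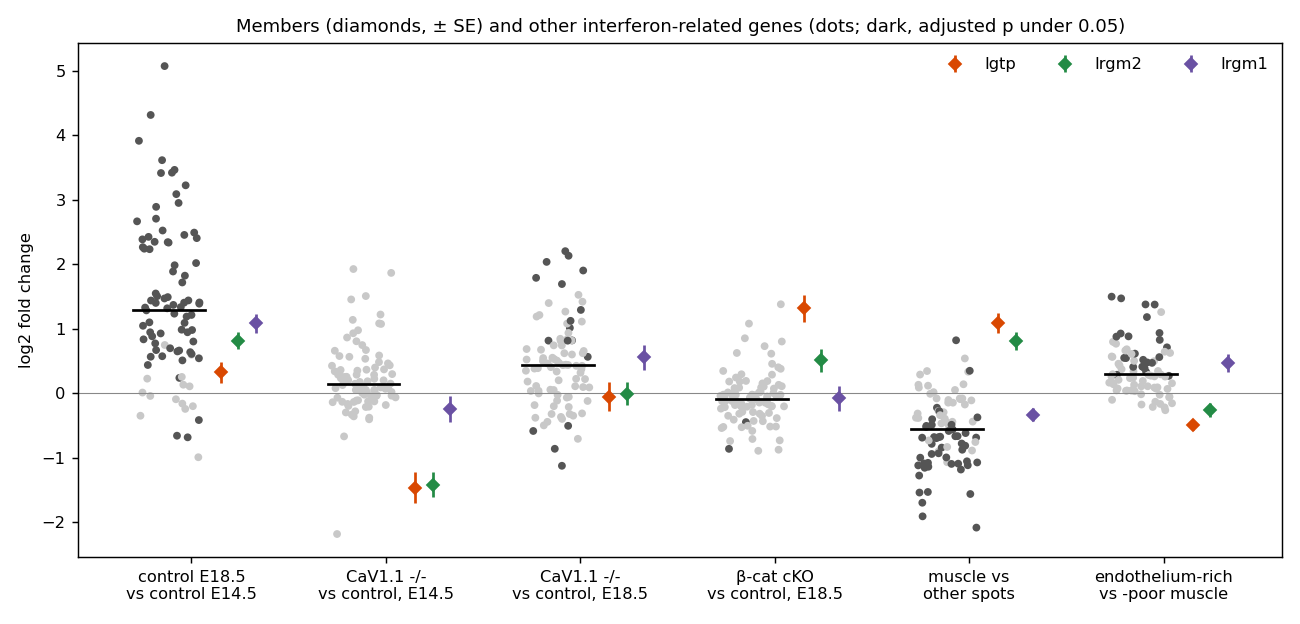
Log2 fold change of the 3 genes (diamonds, bars are the SE) and of the other interferon-related genes (dots, dark where adjusted p is under 0.05, with their median as a black line) in 6 comparisons. In E14.5 CaV1.1 -/- muscle Igtp and Irgm2 lie at -1.47 and -1.42 below a list median of 0.15, and in β-cat cKO muscle Igtp lies at 1.32 above a list median of -0.08.

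Outside the muscle, the 3 genes were higher in E18.5 than in E14.5 controls, and how far a mutant stood from its controls differed by section. Means in other spots at E14.5 and E18.5 were 14.9 ± 2.65 (SD, n = 3) and 27.0 ± 5.45 scaled CPM (SD, n = 2) for Igtp, 11.8 ± 0.64 and 30.5 ± 0.59 for Irgm2, and 9.71 ± 0.40 and 19.6 ± 5.34 for Irgm1. The log2 fold changes were 0.93 ± 0.22, 1.42 ± 0.14 and 1.06 ± 0.22. In E14.5 CaV1.1 -/- spots Igtp was at 8.5 (95% interval 7.2 to 10.0) against 12.0 to 17.3 in controls, and Irgm2 at 7.7 against 11.1 to 12.3, both below their controls. At E18.5 the CaV1.1 -/- section was at 42.3 for Igtp against 30.8 and 23.1, and the β-cat cKO section at 27.4, between them. The E18.5 CaV1.1 -/- section stood farther from its controls here than in muscle for Igtp and Irgm2: the ratio to the control mean was 1.57 in other spots and 0.913 in muscle for Igtp, 1.33 and 0.945 for Irgm2, and 1.42 and 1.4 for Irgm1. Hepatocyte markers summed to 11300 and 1.79 scaled CPM in the other spots of the 2 E18.5 controls, to 12690 in E18.5 CaV1.1 -/- and to 140 in β-cat cKO, so liver lay on some sections and not on others, and its part in these values was not tested. Thus the 115 of Igtp in β-cat cKO muscle had no counterpart in the rest of that section.

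The interferon-related list outside the muscle had 53 of 89 genes higher and 0 lower at E18.5 in controls (30.6% of all 14799 genes called), with a median of 1.25. Xaf1 rose by 3.02 ± 0.35 (adjusted p = 0.0031), Gbp3 by 2.91 ± 0.43 (adjusted p = 0.0061), Irf7, the master factor of type I interferon induction, by 2.81 ± 0.48 (adjusted p = 0.0095) and Iigp1 by 1.44 ± 0.27 (adjusted p = 0.012). Without control E18.5 replicate 2 the count was 27 and without control E14.5 replicate 2 it was 35. In the 3 mutant comparisons edgeR called 0 of the 89 genes, against 0% (E14.5 CaV1.1 -/-), 0.108% (E18.5 CaV1.1 -/-) and 1.22% (β-cat cKO) of all genes. At an unadjusted p under 0.05 there were 6, 12 and 9 list genes, and DESeq2 called 0, 2 and 0.

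In scaled CPM, Igtp and Irgm2 were higher in muscle spots than around them, and Irgm1 was lower. In the 5 controls the ratio of muscle to other spots was 2.98, 2.76, 1.81, 1.60 and 1.92 for Igtp and 2.35, 2.14, 1.75, 1.43 and 1.44 for Irgm2, against 0.789, 0.856, 0.684, 0.878 and 0.800 for Irgm1. The ratio of Igtp was 1.58 in CaV1.1 -/- at E14.5, 1.01 in CaV1.1 -/- at E18.5 and 4.19 in β-cat cKO. Igtp and Irgm2 had a ratio above 1 in 8 of 8 sections and Irgm1 below 1 in 8 of 8. In the E18.5 CaV1.1 -/- section, 1.01 and 1.03 are near equal. Without the TMM factors, Irgm2 averaged 27.5 CPM in muscle and 31.3 in other spots of the E18.5 controls, and Igtp 29.3 and 27.5. The E18.5 CaV1.1 -/- section was then lower in muscle, at 40.9 and 48.9 for Igtp and 39.8 and 46.8 for Irgm2. In the other groups both genes stayed higher in muscle, and Irgm1 stayed lower in every group. Fitted within controls, with the section as a block, the log2 differences were 1.09 ± 0.16 for Igtp, 0.81 ± 0.14 for Irgm2 and -0.33 ± 0.11 for Irgm1.

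The other interferon-related genes were mostly lower in muscle spots. Of 87 tested genes, 2 were higher and 47 lower in muscle (47.4% of all genes were called), with a median of -0.56 against 0.01 over all genes, and none of the 87 had a higher value than Igtp and 1 a higher value than Irgm2. Lower in muscle were 13 of 16 antigen presentation genes, 17 of 32 antiviral genes and 8 of 15 JAK-STAT and IRF genes. Cd74 was at -1.28 ± 0.30 (adjusted p = 0.014), Irf8, a factor of myeloid cells, at -0.93 ± 0.11 (adjusted p = 0.0012), and the antiviral gene Oasl2 at -1.16 ± 0.20 (adjusted p = 0.0044). Stat3 was higher in muscle by 0.35 ± 0.10 (adjusted p = 0.024), but at -0.05 on library totals, where the median gene shifted by -0.38. Of 11 macrophage markers 10 were lower in muscle spots, where their sum was 241 to 482 scaled CPM against 465 to 901 in the other spots of the controls, and their part was not tested. Lymphocyte markers were close to absent from muscle, at 2.92 to 12.5 scaled CPM summed over 10 genes in the 8 sections. In 3 of the E14.5 sections Ncr1, Nkg7 and Gzma were at 0 there.

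**Figure D3:**
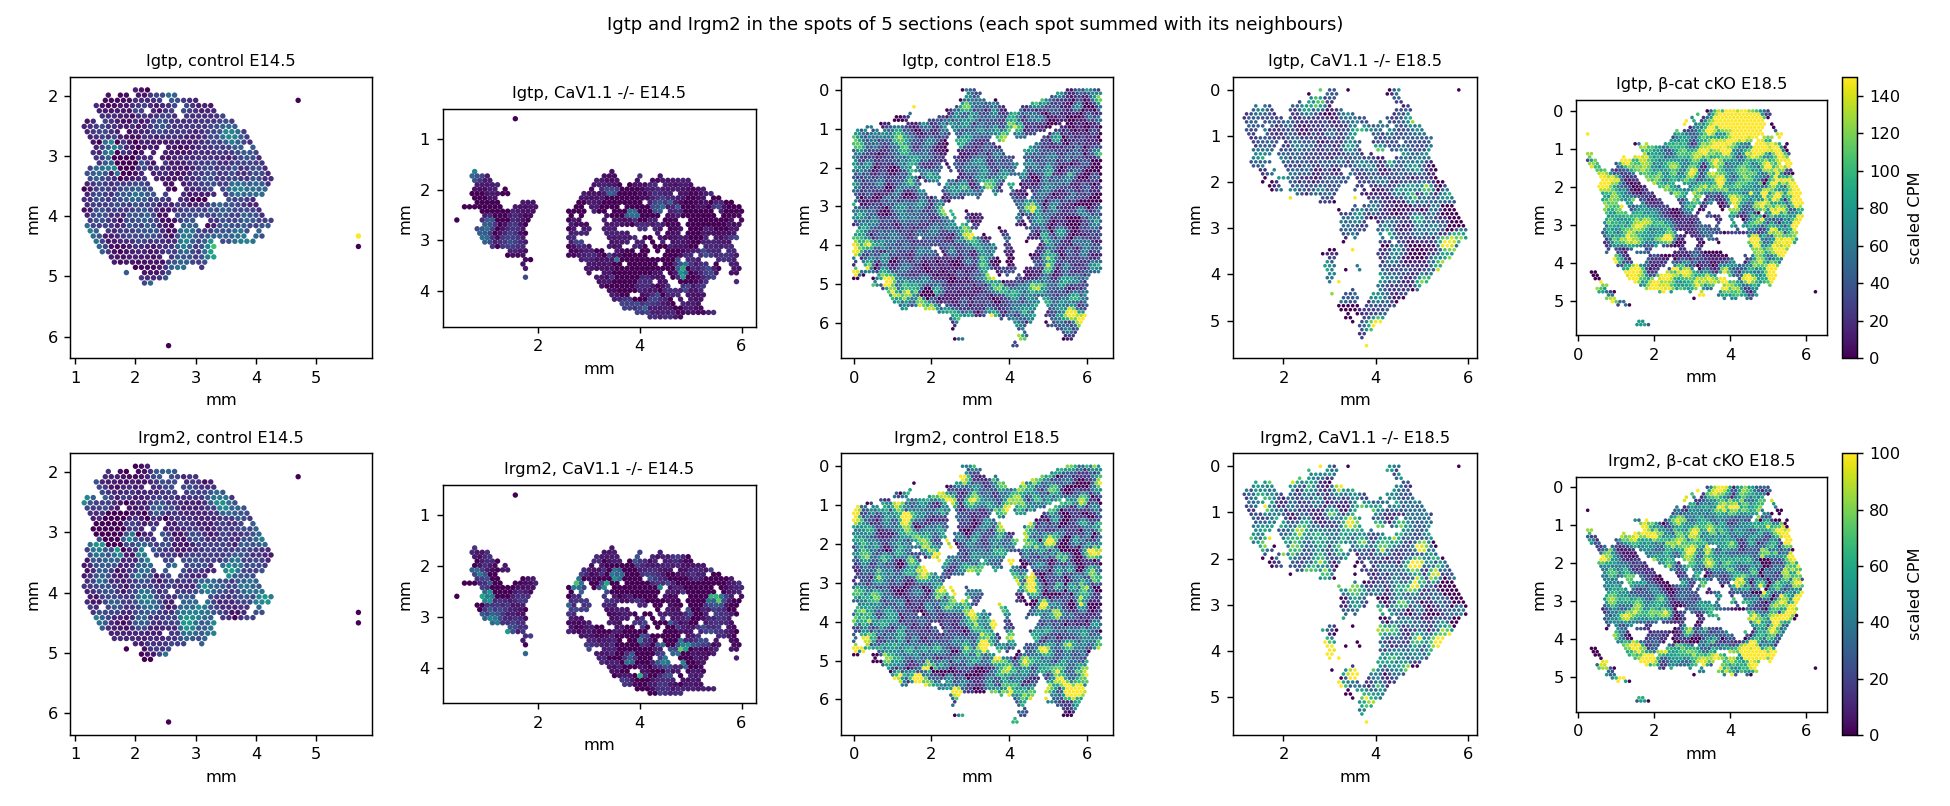
Igtp (upper row) and Irgm2 (lower row) in scaled CPM over the spots of 5 sections, one from each group, with axes in mm; each spot is summed with its neighbours and the color scale is common to a row. Igtp is bright over most of the muscle of the β-cat cKO section (muscle level 115) and dim in the E14.5 CaV1.1 -/- section (13.4), and in the E18.5 control shown it is brightest along the edge of the muscle.

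Along the muscle, Igtp and Irgm2 were higher at the periphery, toward the myotendinous junctions, than in the center, where the neuromuscular junctions lie. Center and periphery spots were the top 15% of muscle spots by junction genes (Chrna1, Musk and 6 others) and by periphery genes (Col22a1, Ankrd1, Rxrg and Uchl1). In the 5 controls Igtp was at 40.3, 31.3, 24.7, 34.4 and 32.9 scaled CPM in the center and at 56.6, 51.7, 35.6, 92.9 and 83.2 at the periphery. Irgm2 was at 17.8, 16.3, 17.1, 30.5 and 39.1 in the center and at 42.7, 39.1, 26.9, 76.9 and 66.7 at the periphery. Both were higher at the periphery in 8 of 8 sections, the mutants included, where the ratio of periphery to center was 1.29 to 1.72 for Igtp and 1.44 to 1.66 for Irgm2.

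Irgm1 had no such gradient in the controls, with ratios of 0.971 to 1.16. In the mutants its ratio was 0.917 in E14.5 CaV1.1 -/-, 1.45 in E18.5 CaV1.1 -/-, near that of Irgm2 there, and 0.859 in β-cat cKO. The fitted log2 differences of center against periphery were -0.56 ± 0.11 for Igtp, -1.10 ± 0.14 for Irgm2 and -0.15 ± 0.24 for Irgm1 at E14.5, and -1.34 ± 0.09, -1.01 ± 0.10 and 0.08 ± 0.15 at E18.5. In center spots the means of Igtp in the control groups were 32.1 ± 7.83 (SD, n = 3) and 33.7 ± 1.01 (SD, n = 2) scaled CPM, and at the periphery 48.0 ± 11.02 and 88.0 ± 6.89. The higher Igtp of the E18.5 controls was thus at the periphery and not in the center, on this scale. In the β-cat cKO section Igtp was at 117 in the center, 106 between and 152 at the periphery, so that its center stood 3.48-fold and its periphery 1.72-fold above the E18.5 control means.

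Regions drawn by distance gave a different picture at E14.5 and in a mutant at E18.5. When the periphery was the muscle within 150 µm of a non-muscle spot, the ratio of near to far spots for Igtp was 0.903, 0.769 and 0.706 in E14.5 controls and 2.09 and 1.55 in E18.5 controls, and for Irgm2 it was 1.05, 0.876 and 0.990 against 1.98 and 1.41. In E14.5 CaV1.1 -/-, E18.5 CaV1.1 -/- and β-cat cKO it was 1.06, 1.25 and 0.978 for Igtp and 0.886, 1.14 and 1.12 for Irgm2, so that the higher periphery of 8 of 8 sections does not hold for regions by distance. The log2 difference of center against periphery at E14.5 thus turned to 0.35 for Igtp and 0.12 for Irgm2. At E18.5 Igtp declined with distance from the edge, with control means of 78.8 ± 18.8, 62.1 ± 2.60, 45.5 ± 3.31 and 39.7 ± 0.40 scaled CPM (SD, n = 2) at 100, 200, 300 µm and farther.

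Of the interferon-related list, 3 genes were higher and 2 lower in the center at E14.5 (57 tested, 20.8% of all genes called), and 10 were higher and 4 lower at E18.5 (84 tested, 21.9% called), with medians of -0.12 and 0.13. At E14.5 none of the 57 list genes was lower than Irgm2, against 259 of all 11821 genes. At E18.5, 170 of 12713 genes were lower than Igtp and 258 lower than Irgm2. In the list 1 of 84 was lower than both: Irf5, a transcription factor of myeloid cells, at -1.74 ± 0.17 (adjusted p = 7.0e-10). The E18.5 comparison rested on 2 sections, so its SE and p-values leaned heavily on the spread of other genes. Over all genes, its 2782 calls became 727 with DESeq2 and 329 without the section block. Ifngr2 was higher in the center at E18.5 (0.37 ± 0.06, adjusted p = 1.2e-05), and Socs3, an inhibitor of JAK signaling, was lower (-0.45 ± 0.10, adjusted p = 0.0015). B2m was lower in the center at E14.5 (-0.35 ± 0.07, adjusted p = 6.3e-04). Macrophage markers were lower in the center in 6 of 9 cases at E14.5 and higher in 1 of 11 at E18.5, and 5 of 10 endothelial markers were higher in the center at E18.5. Their part was not tested.

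**Figure D4:**
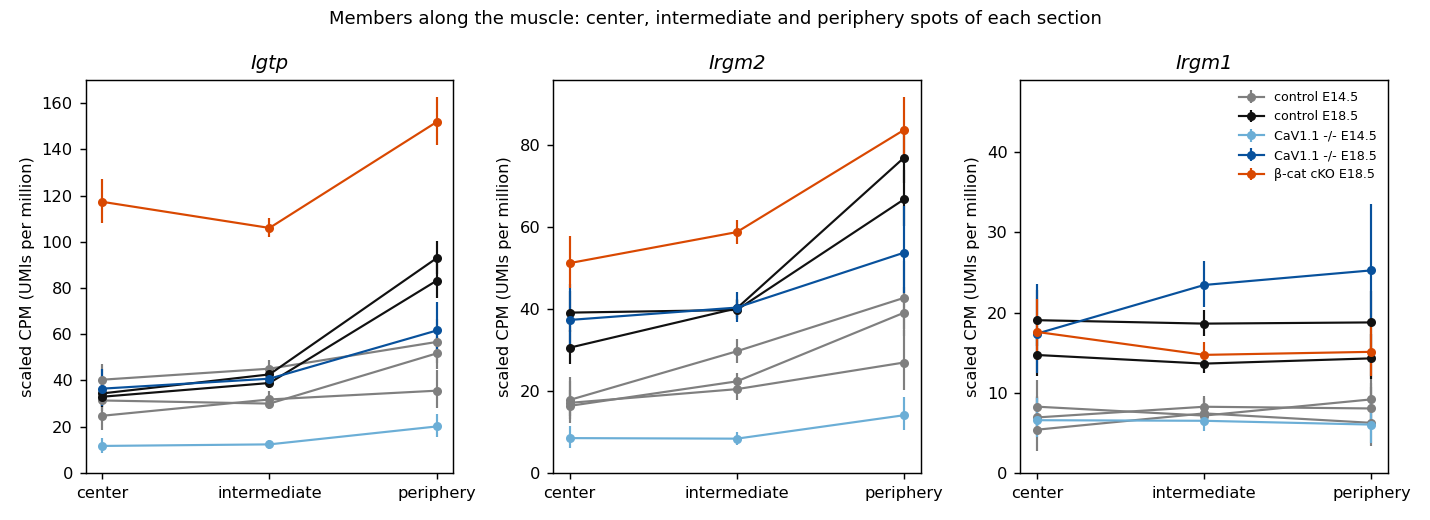
Igtp, Irgm2 and Irgm1 in scaled CPM (linear axis from 0) in center, intermediate and periphery muscle spots, one line per section, colored by group, with 95% exact Poisson intervals. Igtp and Irgm2 are higher at the periphery than in the center in 8 of 8 sections, with Igtp at 83.2 and 92.9 at the periphery of E18.5 controls and 32.9 and 34.4 in their centers, and Irgm1 lines are nearly flat in the controls.

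Endothelium is a tissue where many interferon-induced genes are present, and muscle spots were therefore split into 5 equal bins by their endothelial markers. Igtp was lower where endothelium was rich: in the controls it was at 44.5, 40.1, 34.6, 59.4 and 54.1 scaled CPM in the lowest bin and at 36.0, 27.0, 26.8, 44.0 and 41.7 in the highest. The ratio of highest to lowest was below 1 in 8 of 8 sections. Irgm1 was at 7.6, 6.4, 5.1, 11.4 and 15.4 in the lowest bin and at 7.5, 8.9, 10.3, 18 and 21.8 in the highest, higher in 4 of 5 controls, and the ratio in the mutants was 0.669 in E14.5 CaV1.1 -/-, 1.17 in E18.5 CaV1.1 -/- and 1.35 in β-cat cKO. The fitted log2 differences within controls were -0.50 ± 0.08 for Igtp, -0.26 ± 0.10 for Irgm2 and 0.46 ± 0.14 for Irgm1.

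The rest of the list was mostly higher where endothelium was rich. Of 83 genes, 24 were higher and 0 lower in endothelium-rich muscle (11.8% of all genes were called), with a median of 0.29 against -0.02. None of the 83 lay below Igtp, where 442 of all 12860 genes did. Without control E18.5 replicate 1 the count was 7, and without control E18.5 replicate 2 it was 15. Gbp3 was higher by 1.38 ± 0.18 (adjusted p = 6.4e-05), the MHC class I gene H2-D1 by 0.83 ± 0.16 (adjusted p = 0.0017) and Ifngr1 by 0.38 ± 0.09 (adjusted p = 0.0100). Binned by macrophage markers instead, Irgm1 was at 13.3 and 17.6 in the lowest and 17.1 and 23.4 in the highest bin of the E18.5 controls, and at 12.3 and 28.8 in the E18.5 CaV1.1 -/- section. Its ratio of highest to lowest macrophage bin was 1.32, 1.68 and 0.895 in E14.5 controls, 0.661 in E14.5 CaV1.1 -/- and 1.5 in β-cat cKO, so the direction was not common to all sections. That of Irgm2 was 2.40, 1.13 and 0.858 in E14.5 controls, 1.28 and 1.26 in E18.5 controls, and 0.942, 1.37 and 0.841 in E14.5 CaV1.1 -/-, E18.5 CaV1.1 -/- and β-cat cKO. Igtp was at 46.3 and 44.7 in the lowest and 53.1 and 46.0 in the highest macrophage bin of the E18.5 controls, and its ratio over all sections was 0.796 to 1.38.

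**Figure D5:**
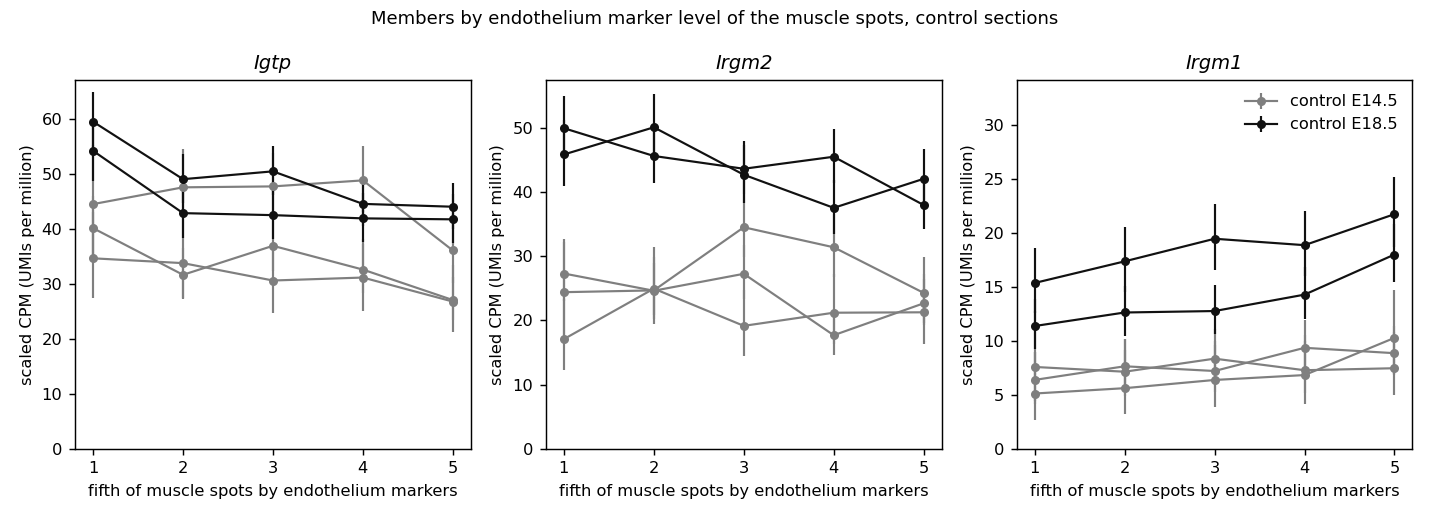
Igtp, Irgm2 and Irgm1 in scaled CPM (linear axis from 0) in the muscle spots of the 5 controls, in 5 equal bins from few to many endothelial markers, with 95% exact Poisson intervals. Igtp declines from 59.4 and 54.1 to 44.0 and 41.7 in E18.5 controls, and Irgm1 climbs from 11.4 and 15.4 to 18 and 21.8.

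Over the 8 muscle sums, Igtp and Irgm2 had like profiles and Irgm1 was less like either. Likeness was the root-mean-square difference between log2 profiles, each centred on its own mean, where a smaller value means more alike. It was 0.296 between Igtp and Irgm2, and 2 of 14831 genes were closer to Igtp than Irgm2 was. It was 0.680 between Igtp and Irgm1, with 1524 of the 14831 closer to Igtp, and 0.483 between Irgm1 and Irgm2, with 2244 closer to Irgm1. The genes nearest to Igtp among well detected ones were Ccdc88c (0.383), Ank2 (0.399) and Dysf (0.400), which encodes the membrane repair protein dysferlin. Those nearest to Irgm2 were Nfatc2 (0.209), Itga7 (0.210), an integrin of the myotendinous junction, and Ank2 (0.264), all closer to it than Igtp was. Those nearest to Irgm1 were Mxra8 (0.121), Tgfbr3 (0.144) and Fcgrt (0.155). The spread of each profile about its own mean was 0.804 for Igtp and Irgm2 and 0.669 for Irgm1. Igtp, Irgm1 and Irgm2 were chosen by their pattern in these same sections, so the ranks among them are a description and no evidence of a link. Transcripts of Igtp and Irgm2 also share stretches of 50 bases, and a probe that counts both would make their profiles alike. Whether there is one is not known.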

How the data were processed

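Sections of formalin-fixed diaphragm (1 per embryo) were profiled with Visium probes. Per the labels and the study's methods, the authors aligned the reads to mm10 with Space Ranger, and the deposited matrices hold raw UMI counts per gene and spot, which were used as deposited; Seurat is also named in the submitters' processing notes, with no version. Spots under 1000 UMIs were left out. Muscle spots were separated by Otsu's threshold on the mean log-normalized level (10000 UMIs per spot) of the muscle markers. Counts were summed by section and region, which makes the section the replicate, and nothing in the labels says more of how sections are related than that each is a separate sample. Spot coverage sets the counting error, given as exact Poisson intervals.

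Sums were tested with edgeR 4.0.16 (quasi-likelihood F test, filterByExpr, TMM, Benjamini-Hochberg over all genes) in R 4.3.3. The fit of groups held all 8 sections, with 3 residual degrees of freedom, and the region comparisons held the controls with the section as a block. In each fit edgeR drew the spread of a gene toward the trend over all genes, most where sections were few. DESeq2 1.42.0 was an alternative, as were other scalings, filters, spot and muscle thresholds, regions, sections in the fit and the replicate number as a block. The scripts were tested on simulated data.

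The members and gene lists were chosen with earlier results of these data known. List genes named were, per sub-list, the called gene that changed most in each direction (average log2 CPM 3 or more), up to 8 per comparison, and a fixed set (among them Irf1, Ifngr1, Ifngr2, Irgq, Gbp2, Gbp7, B2m, Tap1, Psmb8 and Psmb9) in muscle, of which only some are printed and 1 is not reported here. Other names are said to be chosen after their values were seen. Promoters were RefSeq entries on GRCm38.p6. Likeness between the 3 genes was ranked over all genes tested, and the nearest genes were named among those averaging log2 CPM 5 or more.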

Additional observations from a re-analysis of the deposited data

Results flagged for a closer look

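In scaled CPM, these values point in opposite directions in 2 regions or at 2 stages. Each is the log2 ratio of a mutant section to the mean of its controls, with every control on the same side. None of these differences was tested, since the 3 genes were chosen for their pattern in these data.

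In CaV1.1 -/- at E18.5, Igtp was at -0.13 in muscle and 0.65 in other spots, and Irgm2 at -0.082 and 0.41. These 2 muscle values are small, and the fit gave -0.06 for Igtp and -0.01 for Irgm2. On library totals without TMM the fitted muscle values became 0.48 and 0.53, so that both regions then pointed upward. In other spots of CaV1.1 -/- sections, Igtp was at -0.81 at E14.5 and 0.65 at E18.5, and Irgm2 at -0.62 and 0.41. Irgm1 in CaV1.1 -/- at E14.5 was at -0.22 in muscle and 0.19 in other spots, and in muscle it was at -0.22 at E14.5 and 0.48 at E18.5. The Poisson interval of Irgm1 in E14.5 CaV1.1 -/- muscle reached into the range of its controls. In β-cat cKO, Irgm2 was at 0.49 in muscle and -0.29 in other spots.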

How the results depend on the processing

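The low Igtp and Irgm2 of E14.5 CaV1.1 -/- muscle and the high Igtp and Irgm2 of β-cat cKO muscle kept their direction in all of the alternatives, where the log2 values were -1.71 to -1.28, -1.60 to -1.28, 1.15 to 1.53 and 0.42 to 0.72. Of the alternative values of the 3 genes, 315 moved by less than the spread between sections and 51 by more. The sign turned in 16, of which 4 had a reported value larger than that spread and 12 a reported value within it. On library totals without TMM, values turned sign in control muscle between stages for Igtp (-0.39), Irgq (-0.15), Ifngr1 (-0.052) and Irf1 (-0.085), in E18.5 CaV1.1 -/- muscle for Igtp (0.48), Irgm2 (0.53) and Irf2bp2 (0.031), in β-cat cKO muscle for Irgm1 (0.14) and in muscle against other spots for Stat3 (-0.0453). This scaling shifted the median of all genes. With regions by distance, Igtp (0.35) and Irgm2 (0.12) turned at E14.5 and Ifitm1 (-0.068) at E18.5, and with a region share of 25% Irgm1 did at E18.5 (-0.00046). The other turns were of E18.5 CaV1.1 -/- Igtp and Irgm2 in muscle, and of β-cat cKO Irgm1 in muscle and Igtp and Irgm1 in other spots, all with a reported value near 0 (-0.08 to 0.01). The cause was not tested.

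Counts of called list genes moved by over 1.5 times as follows. In E14.5 CaV1.1 -/- muscle (0 as reported) the count was 2 with DESeq2, 5 with no filter on low counts, 2 with sections of the same stage only and 1 with muscle above the section median. In E18.5 CaV1.1 -/- muscle (17) it was 57 on library totals and 27 with the median threshold. In β-cat cKO muscle (2) it was 1 with DESeq2, 6 on library totals, 0 with sections of the same stage only and 6 with the median threshold. In other spots it was 2 with DESeq2 and 10 with the median threshold for E18.5 CaV1.1 -/- (0), and 1 with that threshold for β-cat cKO (0). For center against periphery it was 0 with DESeq2 and 11 by distance at E14.5 (5), and 3 with DESeq2 and 8 with a region share of 25% at E18.5 (14). For endothelium-rich spots (24) it was 6 with DESeq2. Leaving out 1 control section gave 11 to 45 in E18.5 CaV1.1 -/- muscle, 1 to 6 in β-cat cKO muscle (6 without control E18.5 replicate 1), 27 to 49 between stages in other spots (53), 1 to 10 for center against periphery at E14.5 (1 without replicate 1 or 2, 10 without replicate 3) and 7 to 28 for endothelium. Leaving out a control at E18.5 could not be done for center against periphery, where 1 section would remain.

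The deviations of same-numbered replicates had correlations of -0.39 and -0.36 in muscle and -0.53 and -0.31 in other spots. The E18.5 controls are a single pair, so their deviations from their own mean mirror each other. The correlations therefore cannot decide whether same-numbered replicates share more than a number. With the replicate block the count was 0 in β-cat cKO muscle and 30 between stages in other spots. With no replicate block, here the section, it was 1 and 1 for center against periphery at E14.5 and E18.5 and 4 for endothelium-rich spots. Over all genes, the count in E14.5 CaV1.1 -/- muscle was 308 as reported, 731 with DESeq2, 577 with the median threshold, 65 without control E14.5 replicate 3 and 0 with the replicate block, and in β-cat cKO muscle it was 1305 as reported and 81 with that block. Depth limits Irgm1 most, with 97 to 735 UMIs in the muscle of a section.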
